A study of Mus musculus with 8 samples.

Results

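The genes described here encode the enzymes and membrane proteins of the lysosome, followed in RNA captured from hypocretin neurons of the mouse hypothalamus. The 44 genes were given by symbol, and every probe set annotated with 1 of these symbols alone was taken: 103 probe sets for 43 genes, out of 34945 probe sets for 18193 genes with a single symbol in all. Cd63, a tetraspanin of late endosomes, had no such probe set. Of the 43 genes, 41 passed a minimum signal (a linear value of 50, or 5.64 on the log2 scale, on at least 4 of 8 arrays) and were tested, with 70 probe sets. The 2 that did not pass were Naglu, the enzyme that removes N-acetylglucosamine from heparan sulfate, and Galns, which removes sulfate from keratan sulfate. Naglu lay under 50 on all 8 arrays, with log2 levels of 3.73 ± 0.29 after capture against 3.47 ± 0.58 in the unbound fractions (SD, n = 4 each). Galns reached 50 on 2 immunoprecipitate arrays and 1 unbound array, with levels of 5.68 ± 1.00 and 5.21 ± 0.74.

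Lysosomes are acidic compartments in which soluble hydrolases break down proteins, sugar chains and lipids that arrive by endocytosis and autophagy. Most of these hydrolases are tagged with mannose 6-phosphate in the Golgi apparatus and handed to the lysosome by sorting receptors, while proteins such as LAMP1 and LAMP2 line its membrane. The transcription factor TFEB and its relatives bind a short palindrome in the promoters of many lysosomal genes. Inherited loss of many of these proteins causes lysosomal storage diseases, several of which damage the brain.

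Translating ribosome affinity purification pulls down tagged ribosomes, and the RNA on them, from cells that express a transgene. The mice were adults of the bacterial artificial chromosome line Hcrt JD218, 6 to 12 weeks old, of both sexes and of a mixed Fvb and c57/bl6j background. All 8 samples came from such mice, so that both groups carried the transgene. The tissue was dissected thalamus and hypothalamus, each sample pooled 5 mice, and 20 ng of RNA was amplified over 2 cycles. The 4 immunoprecipitates hold the captured RNA, and the 4 unbound fractions, which serve as a measure of the RNA of the whole tissue, come from the same numbered preparations. In all comparisons a difference is immunoprecipitate minus unbound on the log2 scale, and a gene was called at an adjusted p under 0.05 in limma's moderated test over all tested probe sets together with a change of at least 2-fold.

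Hcrt, the hypocretin precursor, checks the labels. Its log2 levels in replicates 1 to 4 were 15.10, 15.39, 15.43 and 15.50 in the immunoprecipitates against 9.77, 10.10, 10.40 and 11.06 in the unbound fractions, 32.5-fold higher after capture. The share of probe sets at or above 50 was 33.6% to 34.8% on the immunoprecipitate arrays and 40.5% to 40.9% on the unbound arrays. The 3′ minus 5′ signal of Gapdh, a measure of RNA integrity, was 4.499 on immunoprecipitate replicate 4 and 3.36 on unbound replicate 4, against 1.94 to 2.31 on the other 6 arrays. That of Actb was 4.05 and 4.11 on immunoprecipitate replicates 1 and 4, 3.14 and 3.53 on replicates 2 and 3, and 3.01 to 3.80 on the unbound arrays. The median difference over 10398 tested genes was -0.85, with an interquartile range of -1.73 to -0.08.

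Lysosomal genes moved in both directions. Among the 41 tested genes, 6 were higher in the immunoprecipitates (Fuca1, Gla, Fuca2, Ctsl, Gusb and Asah1, all soluble hydrolases) and 7 were lower (Lamp2, Gm2a, Sort1, Galc, Npc1, Scarb2 and Tfeb, which include 3 of the 8 tested membrane proteins and both the sorting receptor and the transcription factor). Those counts are 14.6% and 17.1% of the tested lysosomal genes, beside 4.74% of all tested genes called higher and 44.2% called lower. The shares of all genes include genes, such as the microglial marker C1qa, that passed the minimum through the unbound arrays alone. Such genes had to be lower. Of the 41 lysosomal genes 0 passed in that way, and 40 reached 50 on all 8 arrays. The median difference of the lysosomal genes was -0.24, with an interquartile range of -0.72 to 0.59, and lay 0.60 above the median of all genes. Above that median were 31 of the 41, and 19 were among the upper 25% of all genes. Without the minimum signal, 23 of 43 were above the median of all 18193 genes, with an excess of 0.19. The arrays of the groups did not overlap for 8 lysosomal genes that were above and 14 that were below, beside 6.53% and 50.6% of all tested genes.

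A fit with the replicate number as a block gave the same 6 and 7 calls, where 4.98% and 44.8% of all genes were called. How many lysosomal genes count as higher depends on how the groups are put on a common scale. After centring each array on its median, 17 were called higher and 2 lower, where 20.4% and 19.6% of all genes were called. After quantile normalization the counts were 16 and 2, where 16.4% and 20.6% of all genes were called. After a shift on the poly-A controls, RNAs added before amplification that read 1.99 higher in the immunoprecipitates, they were 1 and 35, where 0.673% and 94.5% of all genes were called. Fuca1 was called higher, and Lamp2 and Gm2a lower, under all of these and with the deposited values left as they were. The other 10 calls did not hold on every scale. Fuca2, Gla, Ctsl, Gusb and Asah1 were also called higher after median centring and after quantile normalization, but not after the poly-A shift. Sort1, Galc, Npc1, Scarb2 and Tfeb were also called lower after the poly-A shift, but not after median centring or quantile normalization. With the deposited values Tfeb was not called. Differences of these 10 genes relative to the median of all genes are given on the scale of the hybridisation controls. They were 2.29 for Fuca2, 2.73 for Gla (fitted), 2.11 for Ctsl, 1.97 for Gusb and 1.89 for Asah1. They were -0.93 for Sort1, -0.72 for Galc, -0.68 for Npc1, -0.23 for Scarb2 and -0.16 for Tfeb. In bulk samples such as these, fewer cells of a type and less RNA per cell cannot be told apart.

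**Figure D1:**
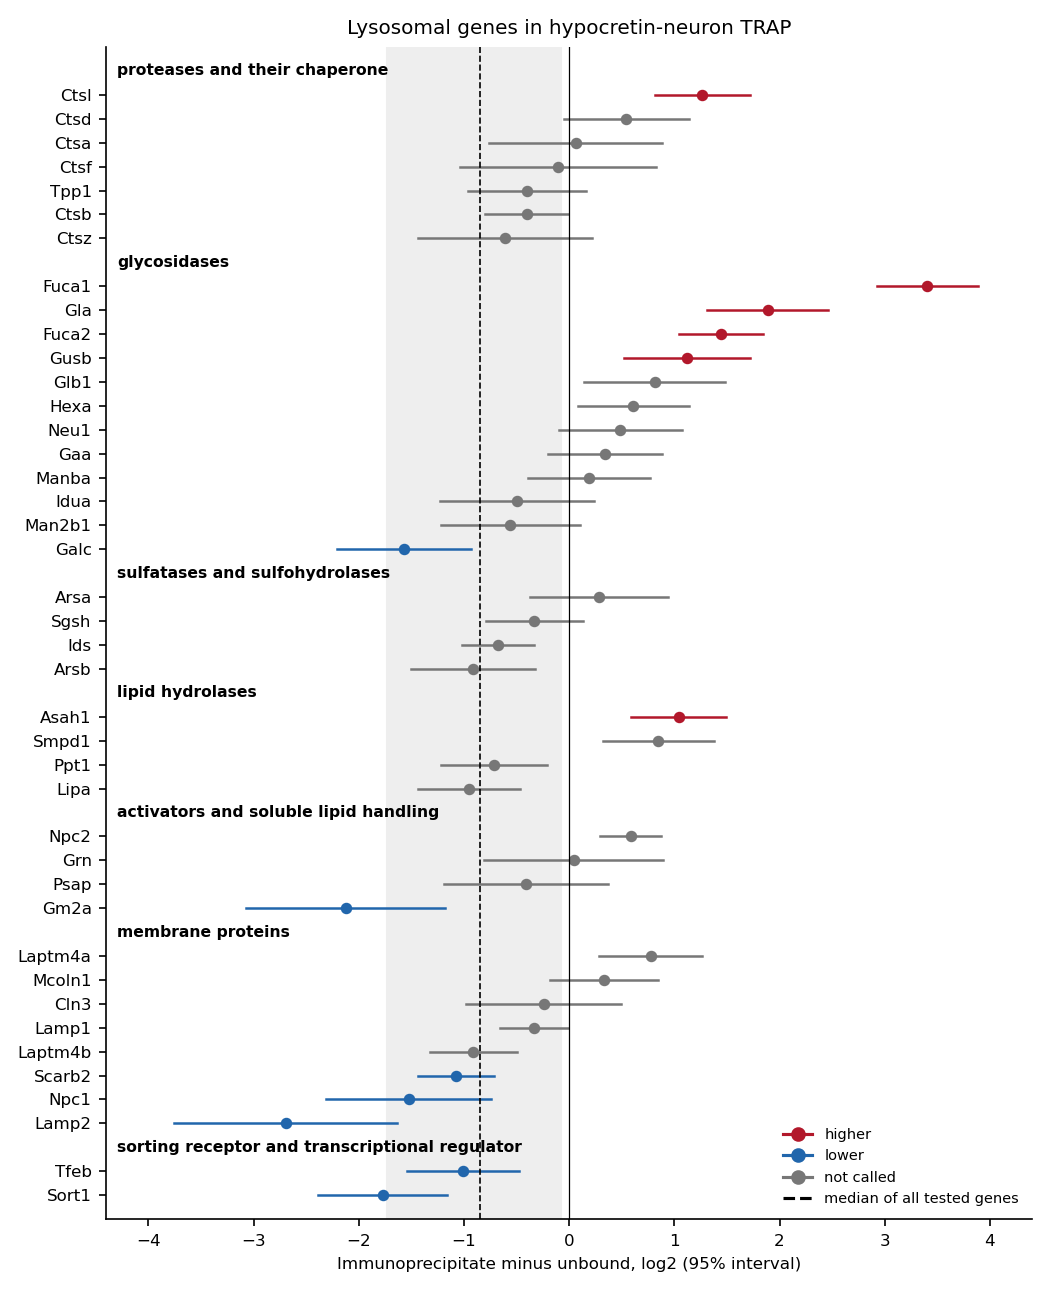
Difference between immunoprecipitate and unbound fraction (log2, horizontal axis) for the 41 tested lysosomal genes, grouped by role. Points are fitted differences and lines their 95% intervals (4 arrays a group), coloured by call; the dashed line and grey band are the median and interquartile range of all 10398 tested genes. Fuca1 stands at 3.41 and Lamp2 at -2.69.

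Glycosidases, which trim sugars from glycoproteins and glycolipids, had the highest median of the roles. Of 12 tested, 4 were higher and 1 was lower, with a median difference of 0.55, and 11 of the 12 lay above the median of all genes. Among glycosidases 9 were higher and 0 lower after median centring (median 1.47), 8 and 0 after quantile normalization (median 1.39), and 1 (Fuca1) and 8 after a shift on the poly-A controls (median -1.42).

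Fuca1 encodes tissue alpha-L-fucosidase, which removes fucose from glycoproteins and glycolipids and whose loss causes fucosidosis. The gene lies on chromosome 4 at 135920726 to 135940300 (GRCm38.p6). In replicates 1 to 4, probe set 1416109_at read 12.39, 13.04, 13.01 and 12.79 in the immunoprecipitates against 9.15, 9.78, 9.44 and 9.24 in the unbound fractions. Every immunoprecipitate array was at least 2.61 above every unbound array. The means were 12.81 ± 0.30 and 9.40 ± 0.28 (SD, n = 4 each), a 10.6-fold difference with a 95% interval of 7.60 to 14.8 (limma adjusted p = 1.97e-06). Within the preparations the fold was 9.45, 9.58, 11.9 and 11.8.

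Fuca2 encodes another alpha-L-fucosidase, found in plasma as well as in cells. It read 11.05, 11.37, 11.49 and 11.42 in the immunoprecipitates and 9.77, 10.05, 9.88 and 9.85 in the unbound fractions, with no overlap. The difference of 1.44 ± 0.18 (SE) amounted to 2.72-fold (limma adjusted p = 8.83e-05).

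Gla encodes alpha-galactosidase A, which removes terminal galactose from globotriaosylceramide and is deficient in Fabry disease. It lies on chromosome X at 134588169 to 134601005. It read 7.69, 7.76, 7.97 and 7.76 in the immunoprecipitates and 6.00, 6.30, 5.97 and 5.36 in the unbound fractions. The lowest unbound array, replicate 4, was under 50, so that the difference is given as at least 3.51-fold higher (limma adjusted p = 0.00016).

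Gusb, beta-glucuronidase, read 7.41, 7.85, 7.83 and 7.87 in the immunoprecipitates and 6.92, 7.003, 6.16 and 6.40 in the unbound fractions. The groups did not overlap, though immunoprecipitate replicate 1 stood only 0.41 above unbound replicate 2. Its difference of 1.12 ± 0.27 (2.17-fold, limma adjusted p = 0.00459) was no longer called without unbound replicate 3.

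Galc encodes galactocerebrosidase, which breaks down the myelin lipid galactosylceramide and is deficient in Krabbe disease. Alone among the tested glycosidases it was called lower. It read 7.85, 6.80, 6.88 and 7.20 in the immunoprecipitates and 8.46, 8.98, 8.64 and 8.91 in the unbound fractions, with immunoprecipitate replicate 1 nearest to the unbound arrays. The difference was -1.57 ± 0.29 (2.96-fold lower, limma adjusted p = 0.000896) and lay 0.72 below the median of all genes.

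The other 7 tested glycosidases were not called. Glb1, the beta-galactosidase that degrades GM1 ganglioside, had a difference of 0.81 (limma adjusted p = 0.0368, 1.76-fold), and without immunoprecipitate replicate 1 it was called higher. Hexa, the alpha subunit of hexosaminidase A, differed by 0.61 (limma adjusted p = 0.0453, 1.53-fold). Neu1, the sialidase, differed by 0.49, Gaa, which degrades glycogen, by 0.34, and Manba, beta-mannosidase, by 0.19. Man2b1, alpha-mannosidase, was at -0.56 and Idua, which acts on dermatan and heparan sulfate, at -0.50. Gaa was among the 3 genes with the highest immunoprecipitate means, at 12.88, 13.85, 13.96 and 13.38 in the immunoprecipitates against 12.80, 13.25, 13.24 and 13.40 in the unbound fractions, which overlap.

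Among the proteases and their chaperone, 1 of 7 was higher and 0 were lower, with a median of -0.10. All 7 lay above the median of all genes. The 1 called gene was Ctsl, which encodes cathepsin L, a cysteine protease. It read 12.59, 12.87, 13.21 and 13.10 in the immunoprecipitates and 11.99, 11.47, 11.35 and 11.89 in the unbound fractions. The groups did not overlap, and the difference was 1.27 ± 0.20 (2.41-fold, limma adjusted p = 0.000411).

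The remaining proteases showed smaller differences. Ctsd, the aspartic protease cathepsin D, averaged 11.47 ± 0.57 after capture against 10.92 ± 0.10 in the unbound fractions (SD, n = 4 each, limma adjusted p = 0.0985). Ctsa, the protective protein that stabilises beta-galactosidase and neuraminidase, differed by 0.06, and Ctsf, cathepsin F, by -0.10. Ctsb, the cysteine protease cathepsin B, and Tpp1, the tripeptidyl peptidase lost in a childhood form of neuronal ceroid lipofuscinosis, were both at -0.40. Ctsz, cathepsin Z, was at -0.61, with immunoprecipitate arrays spread from 8.08 to 9.88.

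Of 4 tested sulfatases and sulfohydrolases 0 were called in either direction. At a limma adjusted p under 0.05 there were 2, Ids and Arsb, which fell short of 2-fold. Ids, which removes sulfate from heparan and dermatan sulfate and is deficient in Hunter syndrome, read 13.45, 13.24, 13.08 and 13.38 in the immunoprecipitates and 14.04, 13.93, 13.67 and 14.23 in the unbound fractions. Its groups did not overlap, but the difference of -0.68 ± 0.15 was short of 2-fold (limma adjusted p = 0.00307). Arsb, which acts on dermatan and chondroitin sulfate, was at -0.91 (limma adjusted p = 0.012, 1.88-fold). Arsa, which desulfates the myelin lipid sulfatide, was at 0.28, and Sgsh, which acts on heparan sulfate, at -0.33.

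Lipid hydrolases lay on both sides of 0. Asah1 encodes acid ceramidase, which splits ceramide into sphingosine and a fatty acid, and was called higher. It read 11.64, 11.93, 12.07 and 11.75 in the immunoprecipitates and 11.25, 10.51, 10.61 and 10.85 in the unbound fractions. The groups were 0.39 apart at their nearest arrays, the 2 arrays of replicate 1. The difference of 1.04 ± 0.20 (2.06-fold, limma adjusted p = 0.00133) fell short of 2-fold when immunoprecipitate replicate 3, unbound replicate 2 or unbound replicate 3 was left out.

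Smpd1, acid sphingomyelinase, which makes ceramide from sphingomyelin, had a difference of 0.85 ± 0.24 (1.80-fold, limma adjusted p = 0.0102) and was called higher without immunoprecipitate replicate 1. Ppt1, which removes palmitate from proteins, was at -0.72 (limma adjusted p = 0.019, 1.64-fold), with a second probe set on the other side of 0. Lipa, the acid lipase that frees cholesterol from its esters, was at -0.95 (limma adjusted p = 0.00354, 1.93-fold) and was called lower without immunoprecipitate replicate 4 or without unbound replicate 3.

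**Figure D2:**
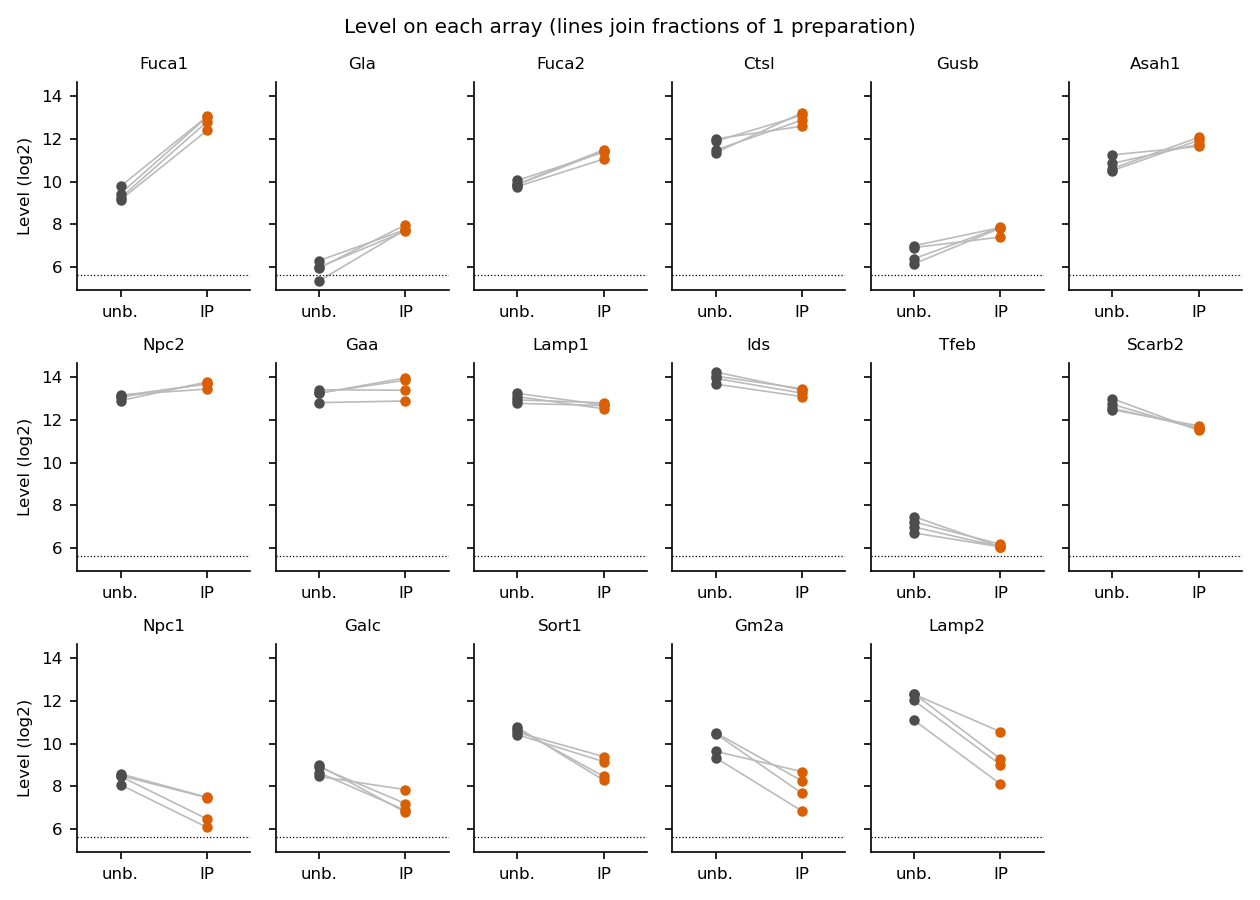
Level on each array (log2, vertical axis) in the unbound fraction (unb., grey) and the immunoprecipitate (IP, orange) for 17 lysosomal genes; lines join fractions of 1 preparation and the dotted line marks the linear minimum of 50. The groups overlap for Lamp1 and Gaa among the genes shown and are 2.61 apart at their nearest arrays for Fuca1.

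Proteins that assist in lipid handling were divided. Gm2a encodes the GM2 activator, a cofactor that lifts GM2 ganglioside out of the membrane for hexosaminidase A. It read 8.69, 7.67, 8.26 and 6.85 in the immunoprecipitates and 9.64, 10.46, 10.51 and 9.34 in the unbound fractions. The groups did not overlap, and the immunoprecipitates were spread over 1.84 log2 units. The difference was -2.12 ± 0.43 (SE), 4.355-fold lower, with a limma adjusted p of 0.00155, and within the preparations it was 1.93-fold, 6.92-fold, 4.77-fold and 5.64-fold lower.

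Npc2, the soluble protein that carries cholesterol inside the lysosome, read 13.43, 13.67, 13.69 and 13.77 in the immunoprecipitates and 13.16, 13.12, 13.05 and 12.89 in the unbound fractions. All 4 immunoprecipitates were above all unbound fractions, but the difference of 0.59 ± 0.13 fell short of 2-fold and was not called (limma adjusted p = 0.00289). Psap, the precursor of the saposin activators, was at -0.41 and Grn, progranulin, at 0.04 (limma adjusted p = 0.323 and 0.931).

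Membrane proteins gave 0 higher and 3 lower (37.5%) of 8 tested, beside 4.74% and 44.2% of all tested genes. Their median was -0.62, which was 0.22 above the median of all genes. The shares of all genes called on the other scales are given above. After quantile normalization 3 membrane proteins (Mcoln1, Cln3 and Laptm4a) were called higher and 1 (Lamp2) lower, after median centring 2 (Mcoln1 and Laptm4a) and 1 (Lamp2), and after a shift on the poly-A controls 0 and all 8.

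Lamp2 encodes a heavily glycosylated protein of the lysosomal membrane, a splice form of which takes up proteins in chaperone-mediated autophagy. The gene lies on chromosome X at 38399647 to 38456460. Probe set 1434503_s_at read 10.55, 9.01, 9.29 and 8.11 in the immunoprecipitates and 12.30, 12.01, 12.33 and 11.10 in the unbound fractions. Immunoprecipitate replicate 1 was the highest of its group and came within 0.55 of the lowest unbound array. The means were 9.24 ± 1.01 and 11.94 ± 0.58 (SD, n = 4 each), a 6.47-fold difference (-2.69 ± 0.48, limma adjusted p = 0.000724). Within the preparations Lamp2 was 3.37-fold, 8.003-fold, 8.22-fold and 7.92-fold lower.

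Lamp1, its close relative and a standard marker of lysosomes, showed a much smaller difference. It read 12.51, 12.67, 12.79 and 12.70 in the immunoprecipitates and 13.08, 12.76, 12.93 and 13.23 in the unbound fractions, and the groups overlapped. The difference was -0.33 ± 0.15 (limma adjusted p = 0.0698).

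Npc1, the membrane partner that receives cholesterol from NPC2, read 7.47, 6.09, 7.49 and 6.48 in the immunoprecipitates and 8.50, 8.08, 8.59 and 8.47 in the unbound fractions. The groups did not overlap, and the difference was -1.52 ± 0.35 (2.88-fold lower, limma adjusted p = 0.00354). Scarb2, which carries glucocerebrosidase to the lysosome, read 11.55, 11.63, 11.72 and 11.50 in the immunoprecipitates and 12.72, 12.53, 12.47 and 12.99 in the unbound fractions. Its difference of -1.08 ± 0.16 (2.11-fold lower, limma adjusted p = 0.000263) was 0.23 below the median of all genes, and a second Scarb2 probe set was called in the opposite direction.

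The other 4 tested membrane proteins were not called. Laptm4a differed by 0.77 (limma adjusted p = 0.0108, 1.71-fold) and its relative Laptm4b by -0.91 (limma adjusted p = 0.00164, 1.88-fold); without immunoprecipitate replicate 1 or unbound replicate 4, Laptm4b was called lower. Mcoln1, the calcium channel TRPML1, was at 0.33. Cln3, the protein lost in juvenile neuronal ceroid lipofuscinosis, was at -0.24.

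The sorting receptor and the transcription factor were both lower. Sort1, sortilin, carries several lysosomal proteins out of the Golgi apparatus. It read 8.46, 9.39, 9.15 and 8.29 in the immunoprecipitates and 10.69, 10.52, 10.42 and 10.76 in the unbound fractions, with more than 1 log2 unit between the groups. The difference was -1.77 ± 0.27 (3.42-fold lower, limma adjusted p = 0.000326).

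Tfeb encodes the transcription factor that raises expression of lysosomal genes. It read 6.19 in immunoprecipitate replicate 1 and 6.07 in each of the other 3, and 7.23, 6.99, 7.48 and 6.72 in the unbound fractions. The groups did not overlap, but 3 immunoprecipitate arrays held an identical value close to the minimum of 5.64, so that the size of the difference is uncertain. As fitted, the difference of -1.01 ± 0.24 was 2.01-fold (limma adjusted p = 0.00401), lay 0.16 below the median of all genes, and was 0.20 in the opposite direction, and not called, after quantile normalization. It was not called either with the deposited values unshifted or without immunoprecipitate replicate 2, 3 or 4 or unbound replicate 1 or 3.

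Close partners differed in how they changed, in a comparison of pairs chosen after their values were seen and given with no test. The Fuca1 difference exceeded that of Fuca2 by 1.96, that of Hexa exceeded that of its cofactor Gm2a by 2.73, and that of Npc2 exceeded that of Npc1 by 2.11. For Laptm4a over Laptm4b the excess was 1.68, and for Ctsl over Ctsb it was 1.67. In each of these 5 pairs the log2 ratio of the partners on every immunoprecipitate array lay above that on every unbound array. For Lamp1 over Lamp2 the excess was 2.36, but the log2 ratio on immunoprecipitate replicate 1 (1.96) lay under that on unbound replicate 4 (2.13).

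Several tested probe sets were available for 20 of the lysosomal genes, and they did not always read alike. All probe sets had the same call for 12 genes, some but not all were called for 7, and 1 gene had calls in both directions. Over the 70 tested probe sets 11 were higher and 13 lower, beside 4.88% and 45.1% of all tested probe sets. All 3 Fuca1 probe sets were higher (2.56, 3.41 and 3.65) and all 4 Lamp2 probe sets were lower (-2.69, -2.68, -1.51 and -1.35). The Fuca1 probe set at 3.65, 1437772_s_at, was under 50 on all unbound arrays. It passed the minimum through the immunoprecipitates alone and so had to be higher, by at least 2.87-fold.

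Scarb2 was the gene with calls in both directions. Probe set 1460235_at read 9.83, 9.91, 10.01 and 10.18 in the immunoprecipitates and 8.89, 8.99, 9.09 and 8.92 in the unbound fractions, a difference of 1.01 (limma adjusted p = 0.000958), against -1.08 on the probe set that represents the gene. For Lipa a second probe set was called higher at 1.16 as fitted, against -0.95. Only 1 unbound array of that second probe set reached 50, so that it was at least 1.98-fold higher. For Npc2 a second was called higher at 1.15. For Ctsb 1 of 4 probe sets was called lower at -1.89, for Tpp1 1 of 2 at -1.28 and for Laptm4b 1 of 3 at -1.28. For Ppt1 neither of 2 probe sets was called, yet they differed in sign, at -0.72 and 0.79 (limma adjusted p = 0.019 and 0.00654), each without overlap of the groups. Arsb (-0.91 and 0.57), Psap (-0.41 and 0.18) and Cln3 (-0.24 and 0.94) likewise had probe sets on both sides of 0, none of them called. Sort1 was called on 1 of 2 probe sets, with -0.69 on the other, and Gusb on 1 of 2, with 0.29 on the other. When probe sets were averaged within genes instead of taking the brightest, Gusb and Scarb2 were no longer called, Laptm4b was called lower, and the median of the lysosomal genes was 0.06.

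**Figure D3:**
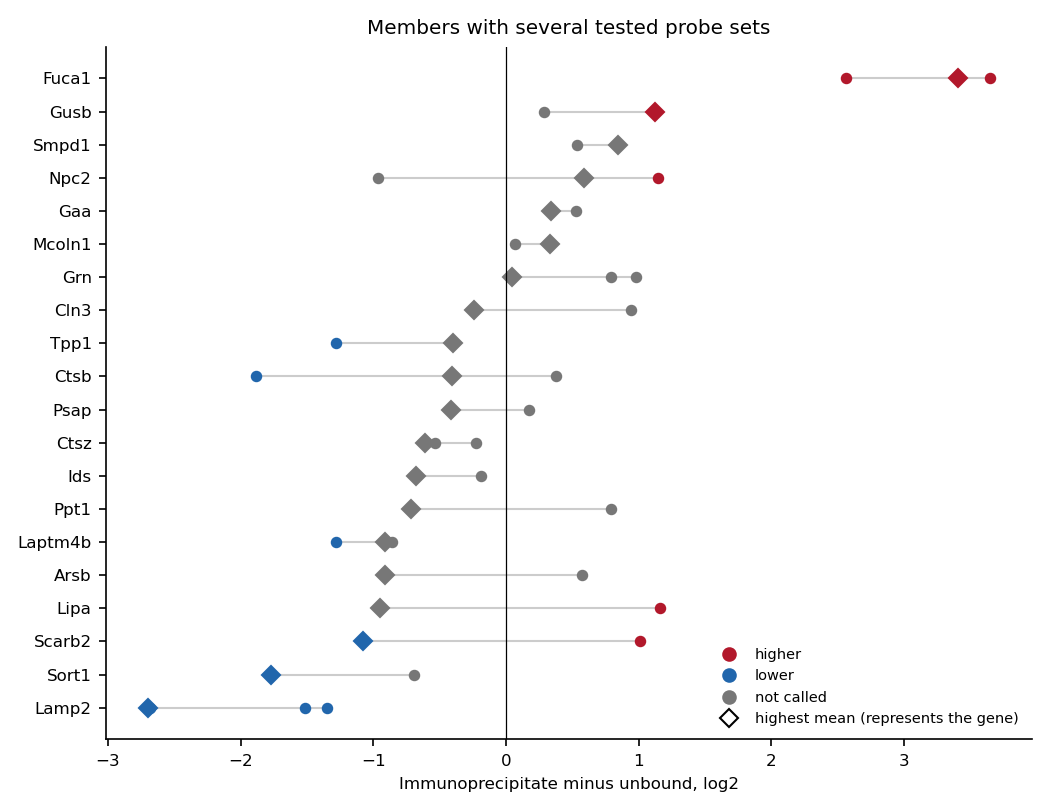
Difference between immunoprecipitate and unbound fraction (log2, horizontal axis) for each tested probe set of the 20 lysosomal genes with several; diamonds mark the probe set with the highest mean, which represents the gene, and colours the call. The Fuca1 and Lamp2 probe sets each lie on 1 side of 0, while those of 8 genes (Scarb2, Lipa, Npc2, Ctsb, Arsb, Ppt1, Psap and Cln3) lie on both sides. The Fuca1 probe set at 3.65 passed the minimum through the immunoprecipitates alone.

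The lysosomal genes also differed between replicate arrays of the immunoprecipitate. On replicate 1 their median deviation from the group mean was -0.33, where that of all genes was -0.01, and 27 of the 41 were lowest there. The arrays of a group were normalized together, which keeps the median of all genes near 0. On replicate 1, 12 of the 41 lay above their group mean, beside 48.6% of all genes. On replicate 3 the median deviation was 0.25, against 0.01 for all genes, and 21 of the 41 were highest. Replicates 2 and 4 were at 0.08 and -0.10, and the unbound arrays between -0.01 and 0.05. Without immunoprecipitate replicate 1, 8 lysosomal genes were higher and 8 lower, with a median difference of -0.04, where 5.99% and 43.8% of all genes were called and their median was -0.81.

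**Figure D4:**
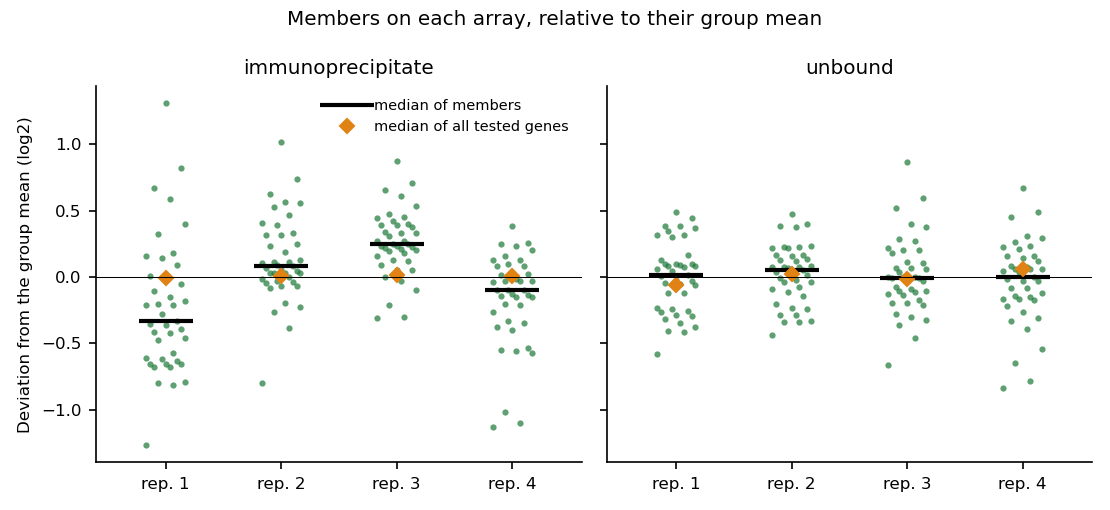
Deviation of each of the 41 tested lysosomal genes from its group mean (log2, vertical axis) on each array, with immunoprecipitates on the left and unbound fractions on the right. Black bars are medians of the lysosomal genes and orange diamonds medians of all tested genes; the bar is lowest on immunoprecipitate replicate 1 (-0.33) and highest on replicate 3 (0.25).

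Lysosomal genes are expressed in many brain cells, and markers of other cell types were lower after capture. Of all tested genes 44.2% were called lower and 4.74% higher. All 7 tested microglial and macrophage markers (of 12 listed) were lower, and their summed linear level was 219 to 736 in the immunoprecipitates against 1817 to 3000.1 in the unbound fractions. C1qa, C1qc and Cx3cr1 were under 50 on all immunoprecipitate arrays and passed through the unbound arrays alone, while Csf1r and C1qb, the highest of the list, were 4.41-fold and 3.82-fold lower. All 10 astrocyte markers were lower, though Sox9 passed the minimum through the unbound arrays alone, with sums of 7880.3 to 21181 against 48270.3 to 55437. All 9 tested oligodendrocyte markers (of 10 listed) were lower, with sums of 18744 to 41554 against 98359 to 114400, and Mbp and Cnp, the highest, were 2.72-fold and 2.50-fold lower. All 5 tested endothelial and mural markers (of 9) were lower, with sums of 120.3 to 498 against 964 to 1435, and Cldn5 and Slco1a4 were under 50 on all immunoprecipitate arrays and likewise passed through the unbound arrays. Neuronal markers gave 1 higher and 5 lower of 10, with a median of -1.11 and sums of 54740 to 62776.5 against 94782 to 122534. All 5 hypocretin markers were higher, in a list chosen with earlier results of these data known.

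Marker levels differed between the immunoprecipitates too. The mean log2 level of the oligodendrocyte markers in replicates 1 to 4 was 10.76, 10.69, 10.48 and 9.25, that of the astrocyte markers 8.98, 8.53, 8.05 and 7.46, and that of the hypocretin markers 12.19, 12.67, 12.80 and 13.12. Replicate 1 thus had the highest mean of both of these glial lists and the lowest of the hypocretin list, and replicate 4 the reverse. The microglial means were 5.97, 5.88, 5.78 and 4.74, and those of the endothelial and mural list 5.86, 5.90, 4.63 and 4.33. By summed linear level the oligodendrocyte markers were at 41491 on replicate 1 and 41554 on replicate 2. All 6 lysosomal genes called higher were lowest on replicate 1, and the same count over all genes called higher is not given here. Of all 41 tested lysosomal genes, 27 were lowest on replicate 1, 7 were highest there and 9 were lowest on replicate 4. Above their group mean on replicate 1 were 12 of the 41, beside 48.6% of all tested genes. Of the 7 called lower, 4 (Lamp2, Gm2a, Galc and Tfeb) were highest on replicate 1, 2 (Npc1 and Scarb2) on replicate 3 and 1 (Sort1) on replicate 2, and 4 (Lamp2, Gm2a, Scarb2 and Sort1) were lowest on replicate 4. The part of glial RNA in the differences of lysosomal genes was not tested.

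Other genes of the pathway were lower more often than higher, as were all tested genes (4.74% higher and 44.2% lower). Of 81 tested (108 listed), 5 were higher (6.17%) and 26 lower (32.1%), with a median of -0.64, 0.21 above that of all genes. The count includes 5 genes (Ctsk, Ctns, Mfsd8, Slc29a3 and Cln6) that passed the minimum through the unbound arrays alone and so had to be lower; the other 76 gave 5 higher and 21 lower. After median centring the counts were 16 and 9, where 20.4% and 19.6% of all genes were called. After quantile normalization they were 12 and 10, where 16.4% and 20.6% of all genes were called. After a shift on the poly-A controls they were 0 and 76, where 0.673% and 94.5% of all genes were called.

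Among 18 other lysosomal hydrolases, 2 were higher and 8 lower (median -0.80). Hyal2, a hyaluronidase, was at least 3.23-fold higher (limma adjusted p = 0.000385). Ctss, the cathepsin of antigen-presenting cells, was 4.37-fold lower (limma adjusted p = 0.000127), Ctsc, which activates serine proteases, at least 4.65-fold lower, and Ctsk, the collagen-degrading cathepsin of osteoclasts, at least 1.51-fold lower with all immunoprecipitate arrays under 50. The microglial markers named above were lower on the same arrays. Ctse, cathepsin E, named after its values were seen, was not tested because 3 arrays reached 50; it read 6.81, 9.73, 9.34 and 5.23 in the immunoprecipitates and 2.15 on every unbound array.

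Among 16 other membrane proteins, 0 were higher and 8 lower (median -1.03). Litaf, a protein of late endosomes, was 8.78-fold lower (limma adjusted p = 2.77e-05), and Laptm5, a relative of Laptm4a found in blood-derived cells, was 7.25-fold lower (limma adjusted p = 0.000673). Abca2, a lipid transporter abundant in oligodendrocytes, was at least 5.15-fold lower, and Slc29a3, a nucleoside transporter, at least 2.83-fold lower. The highest was Tmem192 at 0.70, which was not called.

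The proton pump that acidifies the lysosome gave 0 higher and 2 lower of 18 subunits and accessory proteins (median -0.47). The catalytic subunit Atp6v1a was 3.32-fold lower (limma adjusted p = 3.17e-05) and Atp6v0a2 2.46-fold lower (limma adjusted p = 0.00641), while Atp6v1f, the highest, was at 0.59 and not called.

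Genes for enzyme maturation and mannose 6-phosphate sorting were evenly split, with 3 higher and 3 lower of 14 (median -0.25). Sumf1, the enzyme that activates all sulfatases, was 2.74-fold higher (11.81 ± 0.19 against 10.35 ± 0.43, SD, n = 4 each, limma adjusted p = 0.000407). Its paralogue Sumf2 was 3.25-fold higher (limma adjusted p = 0.00374). Sorl1, a sorting receptor of the same family as sortilin, was 4.46-fold lower (limma adjusted p = 0.000154), as was Cln6, a protein of the endoplasmic reticulum, by at least 1.92-fold.

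Of 13 genes for fusion with lysosomes, 0 were higher and 4 lower (median -0.66). Vamp8 was at least 3.67-fold lower, Vps33a 3.74-fold, Vamp7 2.71-fold and Vps18 at least 2.24-fold lower, of which Vamp8 and Vamp7 are membrane fusion proteins and the other two parts of tethering complexes. Vti1b, the highest, was at 0.23. Of the 2 tested relatives of Tfeb, Mitf was at least 3.51-fold lower (limma adjusted p = 0.00741), and Tfe3 was at 0.77 and not called (limma adjusted p = 0.124).

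**Figure D5:**
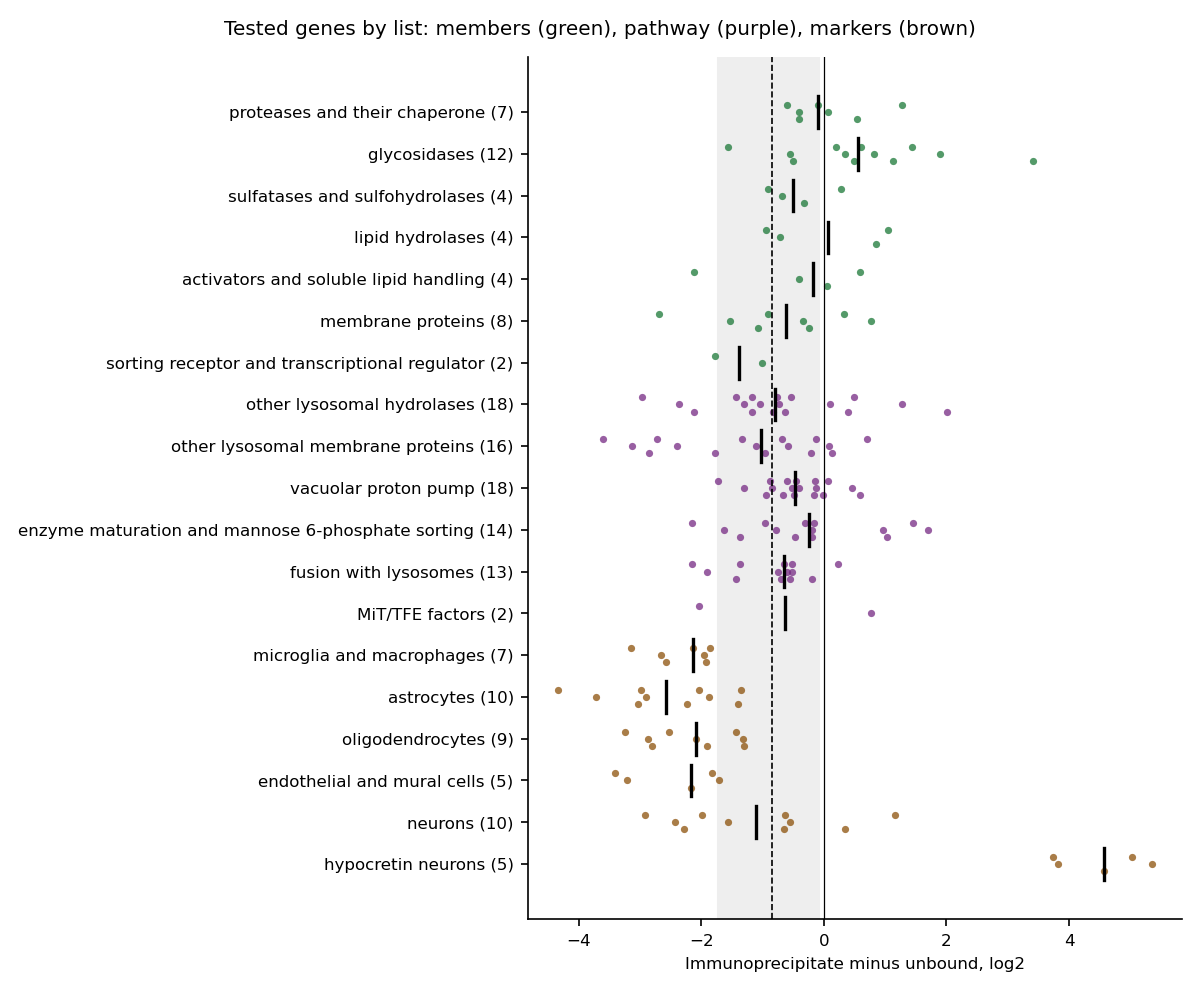
Difference between immunoprecipitate and unbound fraction (log2, horizontal axis) for each tested gene of the lysosomal roles (green), the other pathway lists (purple) and the cell type markers (brown), with the number tested in brackets. Short black bars are list medians, and the dashed line and grey band are the median and interquartile range of all tested genes; the glycosidases have a median of 0.55 and the hypocretin markers lie above 3.7.

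Promoter sequences show which lysosomal genes carry the palindrome that TFEB and its relatives bind. RefSeq promoters (GRCm38.p6, 250 bases before to 50 after the start site) were supplied for 38 of the 44 genes. CACGTG, which reads the same on both strands, was present in 13 of them (34.2%) and in 8.09% of the promoters of 27025 genes. The longer TCACGTG, searched on both strands and always containing the first, was present in 11 (28.9%) and in 4.29% of all. At least 2 copies were found in 6 genes, and the stretches below show them for 5 of these (Ctsd is not shown), with CACGTG in capitals, 5′ to 3′ on the strand of the gene.
Lamp1 (chr8:13159090-13159161, plus strand): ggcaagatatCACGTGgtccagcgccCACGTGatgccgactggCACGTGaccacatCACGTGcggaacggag
Mcoln1 (chr8:3500438-3500489, plus strand): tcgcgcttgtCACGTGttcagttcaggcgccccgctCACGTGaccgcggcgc
Ctsa (chr2:164833751-164833793, plus strand): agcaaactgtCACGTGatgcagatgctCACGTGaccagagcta
Gla (chrX:134601184-134601242, minus strand): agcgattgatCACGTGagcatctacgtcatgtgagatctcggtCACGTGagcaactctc
Cln3 (chr7:126583342-126583395, minus strand): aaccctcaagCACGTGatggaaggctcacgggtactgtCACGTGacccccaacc

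Lamp1, with 4 copies, differed by -0.33, and Gla, with 2, was at least 3.51-fold higher. The genes with the largest differences in either direction, Fuca1 and Lamp2, had no CACGTG in their windows, shown here whole for comparison.
Fuca1 (chr4:135920476-135920775, plus strand): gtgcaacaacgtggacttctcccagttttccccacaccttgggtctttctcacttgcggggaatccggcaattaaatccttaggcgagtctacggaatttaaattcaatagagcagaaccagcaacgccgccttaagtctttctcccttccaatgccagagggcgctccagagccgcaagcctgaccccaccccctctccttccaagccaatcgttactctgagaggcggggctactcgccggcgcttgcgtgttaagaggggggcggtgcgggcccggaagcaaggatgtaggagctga
Lamp2 (chrX:38456411-38456710, minus strand): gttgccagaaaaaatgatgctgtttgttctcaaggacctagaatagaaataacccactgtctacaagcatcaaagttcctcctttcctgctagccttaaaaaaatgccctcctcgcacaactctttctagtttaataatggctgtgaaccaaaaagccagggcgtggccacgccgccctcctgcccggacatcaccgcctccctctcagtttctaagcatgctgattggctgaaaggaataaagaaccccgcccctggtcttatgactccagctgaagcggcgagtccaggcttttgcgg

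Of the tested lysosomal genes, 12 had CACGTG in the window, and their differences ran from -0.33 to 1.89 with a median of 0.31. Of these, 2 (Gla and Ctsl) were higher and 0 lower. The 24 without it ran from -2.69 to 3.41 with a median of -0.46, and 3 were higher and 5 lower. Over all tested genes with a promoter in the table, 1040 had CACGTG and a median of -0.71, with 5.10% higher and 38.75% lower, and 7450 did not and had a median of -0.84, with 4.60% higher and 44.0% lower. These letters describe the windows, and binding was not measured.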

How the data were processed

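RNA from 4 immunoprecipitates and 4 unbound fractions was measured on 8 Affymetrix mouse arrays. The authors deposited a log2 value for each probe set on each array. GCRMA, which corrects background and normalizes, appears in the submitters' processing notes, and per the labels' design text it was run within each group; no version is given in the sources used here. As that text recommends, a constant was taken from all values of a group to equalise the means of 18 biotinylated hybridisation controls, which as deposited differed by 0.0223 (immunoprecipitate minus unbound). All 64 controls were then dropped. limma 3.58.1 (R 4.3.3; eBayes with a trend, no block) tested the 17865 probe sets that reached 50 (linear) on 4 or more arrays; a call needed 2-fold and p under 0.05 after Benjamini-Hochberg adjustment. Where arrays of a group lay under 50, they were raised to 50 for the fold, which is given as at least. The brightest probe set on average stood for its gene. Names came from the platform annotation, and positions and promoters from RefSeq (GRCm38.p6). No 2 arrays held identical values. The number of arrays limits the precision, and the fit was tested on simulated data.

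The lysosomal genes, their roles, the pathway and marker lists and the tests were chosen with earlier results of these data known. Every lysosomal gene is named; values on each array are given for Lamp1, Lamp2, Tfeb, the 6 highest and 6 lowest differences, the 3 highest immunoprecipitate means and any gene with probe sets called in both directions. Up to 4 called genes of a pathway list and up to 2 genes of a marker list with the highest mean were eligible to be named. Replicate numbers pair the samples, since the labels give each unbound fraction as that of the same numbered preparation; deviations of same-numbered arrays from the group means correlated at 0.44, 0.33, 0.25 and 0.59 over 17865 probe sets, while immunoprecipitate replicate 2 and unbound replicate 3 reached 0.26 and immunoprecipitate replicate 3 and unbound replicate 2 reached 0.24. Alternatives were other scalings, filters, thresholds, variance priors, rules for probe sets, the replicate block, and leaving out each array. Figures were made in Python 3.11.15 using matplotlib 3.10.9.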

Additional observations from a re-analysis of the deposited data

Results flagged for a closer look

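Single arrays stood apart from the other 3 of their group, by Dixon's ratio of gap to range above its 95% critical value, for 5 of 82 groups of 4 arrays, where chance gives about 1 in 20, or 4.1. Gusb was low on immunoprecipitate replicate 1 at 7.41, where the others were 7.83 to 7.87. Hexa was low on the same array at 11.42, against 12.17 to 12.29, and so was Smpd1 at 12.07, against 12.92 to 13.002. Tfeb was high on that array at 6.19, against 6.07 on each of the others, which held an identical value. Idua was high on unbound replicate 3 at 8.96, against 7.79 to 7.83.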

How the results depend on the processing

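The number of lysosomal genes called higher (6) and lower (7) became 17 and 2 with median centring, 16 and 2 with quantile normalization, 1 and 35 with a shift on the poly-A controls, and 11 and 12 both at 1.5-fold and with no fold threshold. The median difference moved to 0.68, 0.54 and -2.21 under the first 3 of these. Its excess over all genes was 0.19 with no filter. For other pathway genes (5 higher, 26 lower) the counts were 16 and 9 with median centring, 12 and 10 with quantile normalization, 0 and 76 with the poly-A shift, 8 higher with no filter and 40 lower with no fold threshold. Leaving out 1 array at a time gave 4 to 8 lysosomal genes higher and 6 to 8 lower (8 and 8 without immunoprecipitate replicate 1, 4 and 8 without unbound replicate 3), a median of -0.34 to -0.04, an excess over all genes of 0.51 to 0.78, and 3 to 6 pathway genes higher (3 without immunoprecipitate replicate 3 or 4) and 26 to 29 lower. With the replicate block the counts were 6 and 7, and 5 and 26 in the pathway, and pairing changed no call of a lysosomal gene. Of the 13 calls, 9 held under all 17 alternatives other than these rescalings, and 3 (Fuca1, Gm2a and Lamp2) under all 20. The split of lysosomal calls was 46.2% higher, and 89.5% after median centring, where that of all genes moved from 9.68% to 51.0%. The poly-A shift, which subtracts a constant, reversed the sign of 18 genes: Ctsa -1.90, Ctsd -1.42, Ctsl -0.70, Fuca2 -0.52, Gla -0.0795, Glb1 -1.15, Gusb -0.84, Hexa -1.35, Manba -1.78, Neu1 -1.48, Gaa -1.63, Arsa -1.68, Smpd1 -1.12, Asah1 -0.92, Grn -1.92, Npc2 -1.38, Mcoln1 -1.63 and Laptm4a -1.19. Among genes called before or after it, quantile normalization reversed Cln3 (1.02) and Tfeb (0.20), and the cause was not tested. Sign changes of genes called on neither scale were not counted as reversed. Under quantile normalization the median of the proteases and their chaperone moved from -0.10 to 0.78. That of the sulfatases and sulfohydrolases moved from -0.50 to 0.39. Signal close to the minimum of 50 limits Tfeb, Gla, Sgsh and Cln3. Npc1 (6.09 on immunoprecipitate replicate 2) and Gusb (6.16 on unbound replicate 3) also had arrays close to it.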

Other observations

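Genomic length, from the RefSeq gene spans, varied with the difference between fractions, given here as a description. The median span was 18466 bases for the 41 tested lysosomal genes and 25687 for all tested genes with a span (99.8% of them). Across genes, which share the same 8 arrays and are not independent replicates, Spearman's correlation of span with the difference was -0.43 for the lysosomal genes and -0.36 for all. With all genes cut into 5 equal classes by span, from the shortest to the longest, the median difference was -0.13, -0.52, -0.81, -1.15 and -1.54. The 7, 15, 7, 10 and 2 lysosomal genes in these classes had medians of 0.06, 0.34, -0.41, -1.04 and -0.36, and 32 of the 41 were above the median of all genes in their own class. In the class of 35622 to 81015 bases, which holds Lamp2 and Galc, 6 of 10 lay above it. The part of gene length in the differences was not tested.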
